A study of Homo sapiens with 2 samples.

Results

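The integrated stress response was examined through 10 genes, chosen by symbol from the deposited expression table: the transcription factors ATF4, DDIT3 (CHOP), ATF3, CEBPB and CEBPG, the feedback regulators TRIB3 and PPP1R15A (GADD34), and the effectors CHAC1, DDIT4 and SESN2. All 10 were listed among the 10987 genes of the table. The RNA sequencing comprised 2 libraries, 1 of untreated THP1 cells and 1 of THP1 cells exposed to bort (bortezomib) for 24 h. THP1 is an established monocytic leukaemia line known to carry the MLL-AF9 fusion, and bort inhibits the proteasome, which breaks down proteins tagged with ubiquitin. The label of the treated library gives no dose. Each condition had 1 library, so no difference has a replicate check, no test was possible, and every statement compares these libraries and not the conditions. Values are FPKM, fragments scaled to transcript length and to the mapped fragments of the library. The read depth behind them is unknown, so no counting error is given.

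Cells under many kinds of stress phosphorylate the translation initiation factor eIF2. Most protein synthesis is then slowed, while the mRNA of ATF4, which carries short upstream reading frames, is translated more. ATF4 and its partners of the CEBP family bind a composite element (CARE) in the promoters of genes for amino acid supply, redox balance and feedback, and one of these genes, DDIT3, encodes CHOP, a factor linked to cell death under prolonged stress. PPP1R15A brings a phosphatase to eIF2 and so ends the response, and TRIB3 binds and restrains ATF4 and CHOP.

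The promoter stretches below are shown because they hold a recognition element of these factors upstream of an annotated start. They come from the RefSeq promoter table (250 bases before to 50 after each start, GRCh38.p14), which matched all 10 genes. Each is on the plus strand with 20 bases on either side of the element. Capitals mark CARE, TGATGNAA on either strand, in CHAC1 (chr15:40953242-40953289, 209 bases upstream, reversed), CEBPG (chr19:33374051-33374098, 42 bases upstream) and the first start of ATF3 (chr1:212565196-212565243, 191 bases upstream).
CHAC1: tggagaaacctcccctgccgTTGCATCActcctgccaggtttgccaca
CEBPG: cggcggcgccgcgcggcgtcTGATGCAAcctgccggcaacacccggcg
ATF3: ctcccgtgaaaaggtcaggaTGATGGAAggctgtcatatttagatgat

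For PPP1R15A, capitals mark the cyclic AMP response element TGACGTCA (chr19:48872343-48872390, 58 bases upstream) and a CEBP site, TTGCNNAA, 147 bases upstream (chr19:48872254-48872301). For SESN2 they mark a CEBP site 221 bases upstream (chr1:28259277-28259324).
PPP1R15A cyclic AMP response element: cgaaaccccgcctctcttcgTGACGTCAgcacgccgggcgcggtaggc
PPP1R15A CEBP site: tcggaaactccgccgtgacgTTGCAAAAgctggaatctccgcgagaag
SESN2 CEBP site: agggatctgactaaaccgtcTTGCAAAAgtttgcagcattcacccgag

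CARE letters were found in 3 of the 10 genes, against 4.46% of all 27305 symbols in the promoter table and 2.42% of the 8544 symbols also in the expression table. The cyclic AMP response element was found in 1 gene, against 2.25% and 4.05% of these symbols, and the CEBP site in 3 genes (ATF3, PPP1R15A and SESN2), against 12.7% and 9.46%. None of these 4 motifs (CARE, the cyclic AMP response element, the CEBP site, and the antioxidant response element TGACNNNGC) was in the windows of ATF4, DDIT3 or DDIT4, which says only that these letters are not there. The antioxidant element was found in CEBPB, TRIB3 and PPP1R15A, in the last overlapping the CEBP site, against 16.1% and 19.5%. Over the listed genes with a promoter entry, 9.18% of the 207 with CARE were higher by 2-fold or more in the bort-treated library, against 8.0% of those without it.

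Before the values of the 10 genes, the identity of the cells was checked. All 12 erythroid markers were listed, with a summed level of 4066 FPKM without and 3571 FPKM with bort. The list of 12 myeloid and monocytic markers had 5 genes in the table, at 20.3 and 55.9 FPKM in sum. CD14, CSF1R and MPO were not. The labelled cell type is thus not borne out by these markers. The erythroid factors GATA1 (161.3 to 48.7 FPKM) and KLF1 (147.1 to 17.4 FPKM) were lower, and the myeloid gene LYZ (7.61 to 28.7 FPKM) was higher, by 2-fold or more in the bort-treated library. Their part in the differences below was not tested.

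All 10 genes were higher in the bort-treated library, 5 of them by 2-fold or more on the log2(FPKM + 1) scale, and none was lower. Of all genes in the table, 8.08% were higher by that amount and 10.2% were lower. The 5 genes were DDIT3, DDIT4, ATF3, CEBPG and SESN2. The median log2 fold change of the 10 genes was 1.14, with a range from 0.17 to 3.43, whereas the median over all genes was 0.0049. Together the 10 genes made up 291.9 FPKM in the untreated and 656.7 FPKM in the bort-treated library, or 0.139% and 0.296% of the summed FPKM of each.

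**Figure D1:**
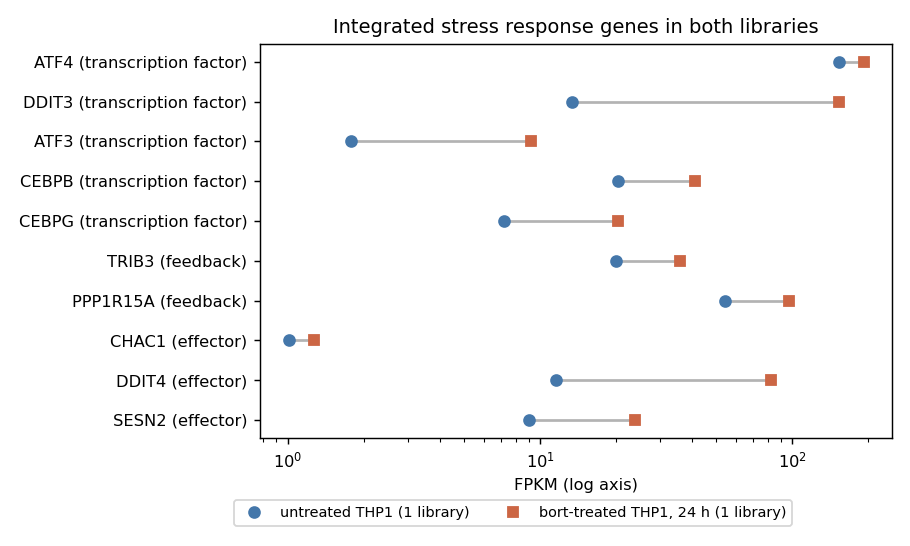
FPKM of the 10 genes (log axis) in the untreated library (circles) and the bort-treated library (squares), 1 library each, with a line joining the values of a gene. Every square lies to the right of its circle, with the longest line for DDIT3, from 13.4 to 153.8 FPKM, and short lines for ATF4 and CHAC1.

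ATF4, the factor at the head of the response, was already abundant without treatment. It was at 153.8 FPKM in the untreated and 192.0 FPKM in the bort-treated library, a log2 fold change of 0.32. It ranked 180 and 119 by level among all genes and was the highest of the 10 in both libraries. A total of 3655 genes had a larger log2 fold change than ATF4. Control of ATF4 at translation and by degradation of the protein would not be seen in these values.

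DDIT3, which encodes CHOP, showed the largest difference of the 10. Its level was 13.4 FPKM in the untreated and 153.8 FPKM in the bort-treated library, an 11.5-fold ratio and a log2 fold change of 3.43. Only 8 of all listed genes had a larger one. DDIT3 moved from rank 3034 to rank 156 by level. Relative to ATF4, the level of DDIT3 was 0.0871 in the untreated and 0.801 in the bort-treated library. The exons of DDIT3 share 105 bases with a protein-coding gene on the same strand that is not in the table, AC022506.1, in GENCODE 29. On the opposite strand they share 355 bases with MARS and 58 bases with MBD6. Whether strand was used in counting is not given in the sources used here, and the kits named differ, so these reads may be shared. MARS itself was at 24.6 FPKM without and 23.7 FPKM with bort, and MBD6 at 4.72 and 5.15 FPKM.

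ATF3, a bZIP factor induced by many stresses, was low in the untreated library, at 1.77 FPKM, and at 9.22 FPKM in the bort-treated library. Its log2 fold change was 1.88, and the ratio without a pseudocount was 5.20. CEBPG, which pairs with ATF4 on CARE sites, was at 7.22 and 20.4 FPKM, a log2 fold change of 1.38. CEBPB, another CEBP partner, was at 20.3 and 41.0 FPKM. Its ratio was 2.02, but its log2 fold change on FPKM + 1 was 0.98, just short of 2-fold. The level of DDIT3 was 0.661 times that of CEBPB in the untreated library and 3.75 times in the bort-treated library. The exons of CEBPB share 231 bases with its antisense gene CEBPB-AS1, which was not analysed here.

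The 2 feedback regulators were higher by similar amounts, and neither passed 2-fold. TRIB3, the pseudokinase that restrains ATF4 and CHOP, was at 19.98 FPKM in the untreated and 36.0 FPKM in the bort-treated library, a log2 fold change of 0.82. PPP1R15A, the stress-induced subunit of the eIF2 phosphatase, was at 53.9 and 97.2 FPKM, a log2 fold change of 0.84. Both were higher than DDIT3 in the untreated library and lower than DDIT3 in the bort-treated library. The level of PPP1R15A was 4.02 times that of DDIT3 in the former and 0.632 times in the latter.

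The 3 effectors spanned nearly the whole range. DDIT4, which restrains mTORC1 (REDD1), was at 11.6 FPKM in the untreated and 82.0 FPKM in the bort-treated library. This 7.09-fold ratio gave a log2 fold change of 2.72, exceeded by 24 other genes. The exons of DDIT4 share 847 bases with DDIT4-AS1 on the opposite strand, which was not analysed here. SESN2, a sestrin that senses leucine and also restrains mTORC1, was at 9.02 and 23.7 FPKM, a log2 fold change of 1.304. CHAC1, which degrades glutathione and is widely used as a marker of ATF4 activity, stayed near the bottom of the table. It was at 1.01 FPKM in the untreated and 1.26 FPKM in the bort-treated library, a log2 fold change of 0.17, and 4498 genes had a larger one. Of the 3 genes with CARE in the window searched, ATF3 and CEBPG passed 2-fold and CHAC1 did not.

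**Figure D2:**
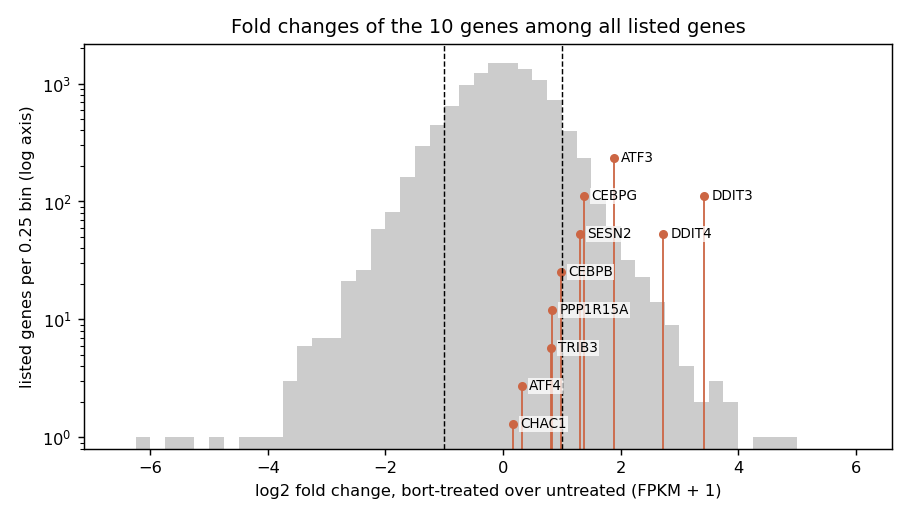
Number of listed genes (log axis) by log2 fold change of the bort-treated over the untreated library, in bins of 0.25, with stems for the 10 genes at heights chosen only for legibility and dashed lines at 2-fold. DDIT3 at 3.43 and DDIT4 at 2.72 lie in the right tail, and ATF4 at 0.32 and CHAC1 at 0.17 lie near the centre of all 10987 genes.

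Fold changes in this table followed the GC content of transcripts, with a Spearman correlation of -0.48 across 10907 genes, which are not independent replicates. Of the 10 genes, 7 had a GC content of 56.7% or more, in the 3 highest of 10 equal bins of genes by GC content. The median log2 fold change of all genes in these bins was -0.33, -0.40 and -0.62. With the trend removed by a lowess fit, 8 of the 10 genes were higher by 2-fold or more and none was lower. Of all 10907 genes with such a value, 768 were higher and 681 lower by that amount. CEBPB was then at 1.68, TRIB3 at 1.28 and PPP1R15A at 1.23 on the log2 scale, while CHAC1 was at 0.71 and ATF4 at 0.64. The 2 genes with the lowest GC content moved the other way, CEBPG to 1.203 and ATF3 to 1.83.

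**Figure D3:**
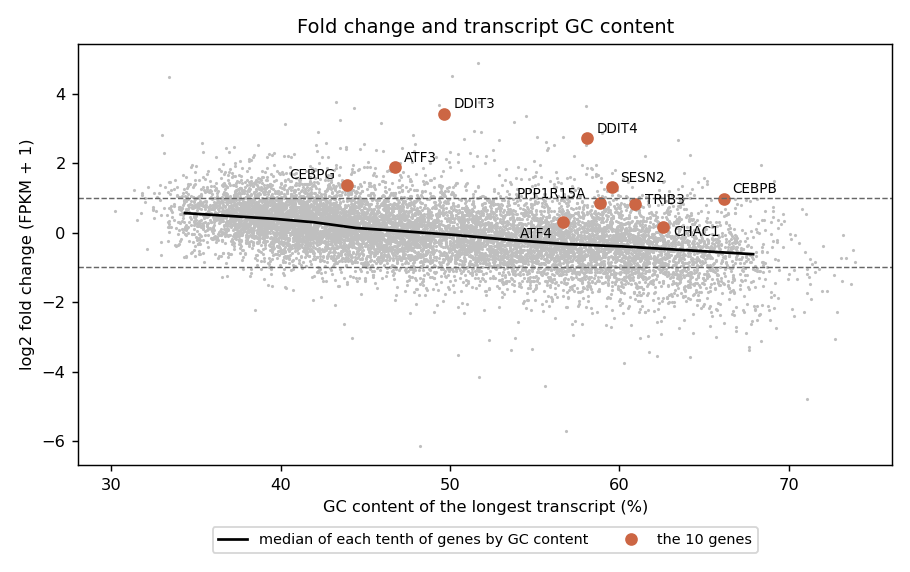
Log2 fold change of each listed gene (grey points) against the GC content of its longest transcript in percent, with the median of each of 10 equal bins of genes (black line), the 10 genes (orange) and dashed lines at 2-fold. The line falls from 0.56 to -0.62, and each of the 10 genes lies above it, ATF4 and CHAC1 included.

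The 10 genes also differed in the leader ahead of their coding sequence in GENCODE 29. An upstream start codon was present in 7 of the 10, against 52.99% of 10595 listed genes with an annotated leader, so its presence is common in general. ATF4 had 7 upstream start codons, CEBPG and TRIB3 had 3 each, and DDIT3 and PPP1R15A had 2 each. In ATF4, DDIT3 and ATF3 at least 1 upstream frame ran into the coding sequence in another frame, against 17.3% of listed genes. Leaders of CHAC1, DDIT4 and CEBPB held no upstream start codon. Each leader was read from 1 annotated transcript of the gene, and its length limits what it can hold. The leader of CHAC1 had only 20 bases and that of ATF4 had 882, against a median of 198 over listed genes.

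The upstream steps of the pathway were compared next, with kinases and eIF2 subunits. Of 21 genes 20 were listed. By 2-fold or more, 2 were higher and 2 were lower, with a median log2 fold change of 0.22. These shares, 10% each way, are near the 8.08% and 10.2% of all genes, so the values below describe single genes. EIF2AK3 (PERK), the kinase that senses stress in the endoplasmic reticulum, was at 2.54 FPKM in the untreated and 6.76 FPKM in the bort-treated library, a log2 fold change of 1.13. DNAJC3 (p58IPK), an inhibitor of these kinases, was at 6.56 and 16.4 FPKM, a log2 fold change of 1.201. The other kinases did not reach 2-fold. Log2 fold changes were 0.013 for EIF2AK1 (HRI), 0.44 for EIF2AK2 (PKR) and 0.24 for EIF2AK4 (GCN2). EIF2B1 and EIF2B3, subunits of the exchange factor that phosphorylated eIF2 blocks, were lower, from 59.4 to 27.1 FPKM and from 51.5 to 23.8 FPKM, and their log2 fold changes were -1.11 and -1.08. With the GC trend removed EIF2AK3 (0.98) and DNAJC3 (0.82) fell short of 2-fold, and EIF2B1 (-1.21) and EIF2B3 (-1.06) did not. Scaling to the summed FPKM without the 20 most abundant genes left neither EIF2B gene past 2-fold.

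Of 35 other known ATF4 and CHOP target genes, 32 were listed. By 2-fold or more, 9 were higher and 2 were lower in the bort-treated library, with a median of 0.34. The higher share of 28.1% compares with 8.08% of all genes. Largest was PMAIP1 (NOXA), a BH3-only death gene, at 9.31 and 56.4 FPKM, a log2 fold change of 2.48. SLC7A11, the cystine transporter, was at 0.656 and 7.26 FPKM (2.32), and SLC38A2, a neutral amino acid transporter, at 12.0 and 53.6 FPKM (2.07). The 2 lower genes were PYCR1 in proline synthesis, at 64.5 and 26.2 FPKM (-1.27), and GPT2, an alanine transaminase, at 2.89 and 0.72 FPKM (-1.18). With the GC trend removed 9 were higher, 8 of them among the 9 above, and none was lower. Among genes with at least 1 FPKM in both libraries, 7 of 28 targets were higher, against 710 of 9139 genes. KLHL24, one of the 9, was at 0.439 FPKM untreated, and every listed gene reached 0.501 FPKM in at least 1 library. It was thus listed only through its higher value.

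The targets were also read by textbook function, a grouping made with these values known. Of 4 cell death genes 2 were higher, PMAIP1 and the death receptor TNFRSF10B (3.23 and 14.6 FPKM), while BBC3 had a log2 fold change of 0.35, or 1.21 with the GC trend removed, and BCL2L11 one of -0.088. Of 10 enzymes of amino acid and one-carbon synthesis 1 was higher and 2 were lower, and none was lower with the GC trend removed. The higher one was CTH, which makes cysteine, at 1.66 and 9.33 FPKM. ASNS, asparagine synthetase, another common marker of ATF4 activity, was at 17.9 and 31.0 FPKM, a log2 fold change of 0.76. Of 8 amino acid transporters 2 were higher and none was lower. Of 5 genes for tRNA synthetases and tRNA export 1 was higher, the exportin XPOT, at a log2 fold change of 1.02 that was 0.68 with the GC trend removed. Of 3 secreted factors 2 were higher, GDF15 (16.3 and 39.1 FPKM) and VEGFA (2.64 and 9.53 FPKM). Differences between these small groups were not tested.

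**Figure D4:**
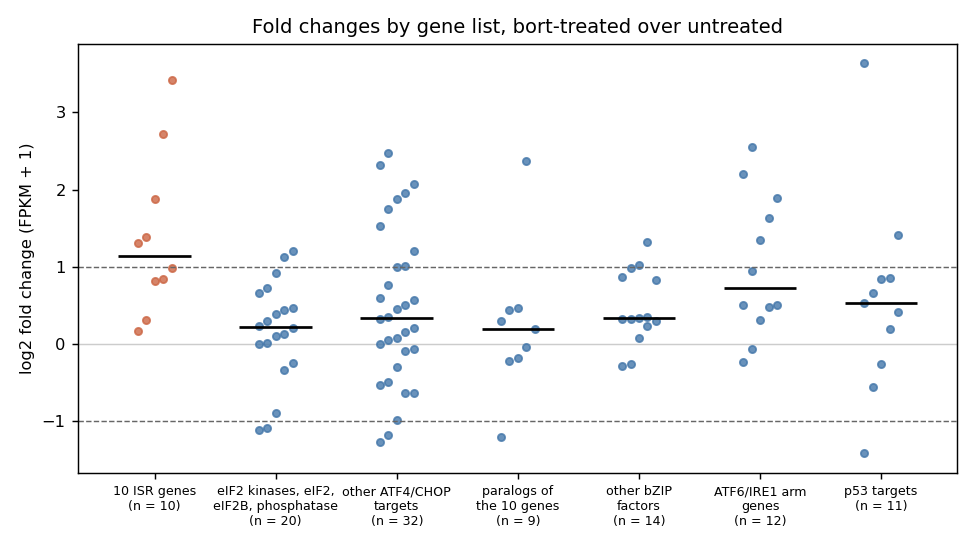
Log2 fold change of each listed gene by list, with the 10 integrated stress response genes (orange), 6 other lists (blue), a bar at each median and dashed lines at 2-fold. The bar of the 10 genes is at 1.14, and the bars of the other lists lie between 0.20 and 0.73.

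Paralogs of the 10 genes were compared with them. Of 12 paralogs 9 were listed, 1 of them higher and 1 lower by 2-fold or more, with a median of 0.20. These shares, 11.1% each way, are near those of all genes, 8.08% and 10.2%. TRIB1, a pseudokinase related to TRIB3, was at 4.51 FPKM in the untreated and 27.4 FPKM in the bort-treated library, a log2 fold change of 2.36, against 0.82 for TRIB3. TRIB2, the third of the family, was at 34.2 and 30.0 FPKM (-0.18). CEBPD was the lower one, at 3.89 and 1.13 FPKM, a log2 fold change of -1.20 that was -0.32 with the GC trend removed. The paralog of CHAC1, CHAC2, was at 13.8 and 13.4 FPKM (-0.036), well above CHAC1 in both libraries. PPP1R15B, the constitutive counterpart of PPP1R15A, was at 9.07 and 11.4 FPKM (0.30), and ATF5, the relative of ATF4, at 8.91 and 7.501 FPKM (-0.22). SESN1 was at 1.23 and 1.55 FPKM, SESN3 at 0.277 and 0.739 FPKM, and JDP2, the relative of ATF3, at 0.109 and 0.539 FPKM. None of these last 3 reached 2-fold on FPKM + 1.

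Genes of the other arms of the unfolded protein response were read beside these. Of 12 genes of the ATF6 and IRE1 arms 5 were higher by 2-fold or more and none was lower, with a median of 0.73. These shares, 41.7% and 0%, compare with 8.08% and 10.2% of all genes. HERPUD1, which acts in degradation at the endoplasmic reticulum, was at 4.28 and 30.0 FPKM (2.56). The cochaperone DNAJB9 was at 2.94 and 17.1 FPKM (2.20), and EDEM1, which routes misfolded glycoproteins to degradation, at 3.47 and 15.5 FPKM (1.89). The chaperone HSPA5 (BiP) was at 311.9 and 965.5 FPKM (1.63), and SEL1L, an adaptor of the degradation ligase, at 2.25 and 7.31 FPKM (1.35). With the GC trend removed SEL1L was at 0.94, and 4 of the 12 were higher by 2-fold. HERPUD1 and HSPA5 are also known to respond to ATF4, so the arms are not cleanly divided by these lists.

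**Figure D5:**
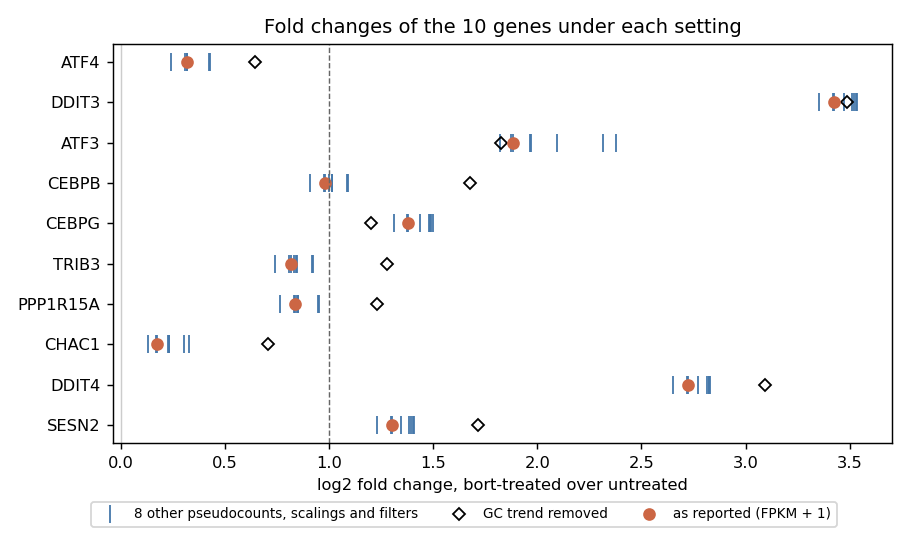
Log2 fold change of each of the 10 genes as reported (circle), with the GC trend removed (diamond) and under 8 other pseudocounts, scalings and filters (ticks), with a dashed line at 2-fold. Every value lies above 0; DDIT3, DDIT4, ATF3, CEBPG and SESN2 stay beyond the dashed line in each, and ATF4 and CHAC1 stay short of it.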

How the data were processed

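RNA from 2 cultures of THP1 cells was sequenced by the authors, who mapped trimmed reads with HISAT2 and reconstructed transcripts with StringTie; the submitters' processing notes name GRCh37, and the annotation is not given in the sources used here. The deposited table holds FPKM per gene as computed by the authors. Its smallest higher value per gene was 0.501 FPKM, so genes below that in both libraries were not analysed here. The paper names a stranded KAPA kit and the labels a TruSeq kit.

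Log2 fold changes are differences of log2(FPKM + 1), bort-treated minus untreated, and 2-fold was the threshold. With 1 library per condition no test was run. The scale understates changes of genes with low FPKM. The 10 genes and all lists were chosen with earlier results of these data known. The genes named are the 10, all listed paralogs, and in each other list up to 3 genes with the highest and 3 with the lowest fold change past 2-fold. The other kinases, TNFRSF10B, CTH, XPOT, GDF15, VEGFA, ASNS, BBC3, BCL2L11, KLHL24, ERO1A, HSPA5, SEL1L, XBP1, MDM2 and the cell markers were named after their values were seen. DELE1 was listed under its older symbol, KIAA0141. GC content, leaders and overlaps came from GENCODE 29 (GRCh38), matched by identifier for 10907 genes (99.3%); the builds differ, so only promoter stretches carry coordinates. The GC trend was removed by lowess (span 0.3). The calculations were tested on simulated data. Python 3.11.15, numpy 2.4.6, pandas 2.3.3, statsmodels 0.14.6 and matplotlib 3.10.9 were used.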

Additional observations from a re-analysis of the deposited data

How the results depend on the processing

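All 10 genes were higher under each of 9 other pseudocounts, scalings and filters. Changing or dropping the pseudocount cannot alter a direction, and the minimum of 1 FPKM left the values of all 10 as reported. Only the scalings and the GC fit could have changed a direction. DDIT3, DDIT4, ATF3, CEBPG and SESN2 were past 2-fold in all 9, CEBPB in 5, TRIB3 and PPP1R15A in 1 and ATF4 and CHAC1 in none. A smaller pseudocount can only enlarge a rise, so it and the minimum could not take a gene below 2-fold. The settings that put CEBPB past 2-fold include the pseudocount of 0.1 FPKM (1.013) and none (1.017). With the GC trend removed 8 of the 10 were higher by 2-fold. With the trend kept, 8 were higher by 1.5-fold and 2 by 4-fold, against 2282 and 92 of all 10987 genes. No paired analysis was possible because only 1 library represents each condition, and for that reason none was left out. The depth is unknown, and how much of a difference at low FPKM is counting error cannot be said.

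Over all genes 888 were higher and 1125 lower by 2-fold. With a pseudocount of 0.1 FPKM 1576 were higher, and with none 1654 higher and 1708 lower. With the GC trend removed 768 of 10907 were higher and 681 lower. At 1.5-fold the counts were 2282 and 2378, and at 4-fold 92 and 135. Higher genes were 44.1% of those past 2-fold, and 54.2% without the 20 most abundant genes in the scaling.

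With the GC trend removed 0 kinase and eIF2 genes were higher, and 0 ATF4 and CHOP targets, 0 paralogs and 0 p53 targets were lower. Lower kinase and eIF2 genes numbered 1 with upper quartile scaling and 0 without the 20 most abundant genes. With a pseudocount of 0.1 FPKM, and also with none, 4 bZIP factors, 4 p53 targets and 3 paralogs were higher. Scaled to the summed FPKM, 1 of 14 bZIP factors was higher, against 757 of all 10987 genes. With a minimum of 1 FPKM in each library, 1 of 28 targets of ATF4 and CHOP was lower and 1 of 9 p53 targets higher. Of 9139 genes 959 were then lower and 710 higher. At 1.5-fold 5 of 20 kinase and eIF2 genes, 5 of 14 bZIP factors and 5 of 11 p53 targets were higher, and 5 of 32 ATF4 and CHOP targets lower. Of all 10987 genes, 2282 were higher and 2378 lower at 1.5-fold, and 92 and 135 at 4-fold. At 4-fold 2 genes of the ATF6 and IRE1 arms, 3 ATF4 and CHOP targets, 1 p53 target, 0 bZIP factors and 0 kinase and eIF2 genes were higher, and 0 genes were lower in these 5 lists and among the paralogs. Unless the setting itself fixes the change, the cause was not tested.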

Other observations

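Other bZIP factors, which share the DNA-binding fold of ATF4 and its partners, were also looked up. Of 15 factors 14 were listed, and 2 were higher and none lower by 2-fold or more, with a median log2 fold change of 0.34. These shares, 14.3% and 0%, compare with 8.08% and 10.2% of all genes. With the GC trend removed the median was 0.081. The values below describe single genes. ATF2 was at 5.32 FPKM in the untreated and 14.8 FPKM in the bort-treated library, a log2 fold change of 1.32 that was 0.80 with the GC trend removed. CREB3L2, a membrane-bound factor of the secretory pathway, was at 5.03 and 11.3 FPKM (1.03). XBP1, the factor spliced by IRE1, was at 22.2 and 28.4 FPKM (0.35).

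SESN2, DDIT4 and ATF3 are known to respond to p53 as well as to ATF4, so a list of p53 target genes was read beside them. Of 12 genes 11 were listed, 2 of them higher and 1 lower by 2-fold or more, with a median of 0.53. The higher share of 18.2% compares with 8.08% of all genes, and the lower share of 9.09% with 10.2%. With so few genes past 2-fold, the values below describe single genes. CDKN1A was at 0.680 FPKM in the untreated and 19.8 FPKM in the bort-treated library (3.63), and BTG2 at 6.66 and 19.5 FPKM (1.42). FDXR was at 13.2 and 4.35 FPKM (-1.41). MDM2, a direct p53 target, was at 2.62 and 4.23 FPKM (0.53). Whether p53 had a part in the differences was not tested.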
